A study of Mus musculus with 24 samples.

Results

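Lyve1, Prox1, Pdpn, Ccl21a, Reln and Mmrn1 are genes by which lymphatic endothelial cells are usually recognised, and their transcripts were followed across endothelium sorted from the aorta and skeletal muscle of lean and high-fat-fed mice. The members are 6 of the 18539 gene symbols that could be matched to the arrays, and 9 of the 41174 non-control probes, found through the transcript accession printed on the array. Each gene is described by its brightest probe in a tissue. Lyve1 was selected on its measured HFD to chow ratios in muscle endothelium, the other 5 genes were chosen with results of these data known, and the brightest probe was chosen by its level. The muscle HFD to chow ratios of Lyve1 and their difference between the strains are therefore a description with no test.

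The arrays hold 8 groups of 3. Endothelium came from the aorta or from hindlimb skeletal muscle, and the mice were either C57BL/6 wild-type (WT) or galectin-3 (-/-) (KO, in which exons of Lgals3 are deleted), fed chow with 12% of calories from fat or a high-fat diet (HFD) with 60% of calories from fat. The mice were male, and the diets ran for 8 weeks from 8 weeks of age. Live CD105+/CD45- cells, about 10000 a sample, were sorted from digests of 3 to 4 pooled mice, so each array is a pool and not an animal. CD105 is endoglin, a glycoprotein of endothelial cells in general, and CD45 marks leukocytes. How much of the lymphatic endothelium lay within this gate was not tested. The 3 arrays of a group came from 3 separate experiments. Levels are given as log2 of the processed signal over the array's own 75th percentile, so a level of 0 is a probe as bright as that percentile and a difference of 1 is a doubling. Different probes bind and label differently, so no level of a gene is compared with that of another gene.

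Lymphatic vessels return fluid and immune cells from tissues to the blood, and their endothelium is set apart from blood endothelium by the transcription factor Prox1. Lyve1 is the hyaluronan receptor of initial lymphatic vessels and is also carried by some tissue macrophages. Pdpn, or podoplanin, is a membrane glycoprotein that binds CLEC-2 on platelets and helps to keep blood out of lymphatic vessels, and it is also made by fibroblasts of several tissues. Ccl21a is a chemokine that draws dendritic cells bearing the receptor CCR7 into lymphatic vessels. Reln, or reelin, is a secreted glycoprotein best known from the brain, and Mmrn1, or multimerin 1, is a secreted matrix protein, and each is made by lymphatic endothelium.

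Some arrays stood apart from their labels and touch every comparison of diet or strain. The Lgals3 probe was higher on the arrays labelled KO in 11 of 12 pairs, with differences from −0.79 to 3.04 on the log2 scale. A probe within the deleted exons would not be higher on KO arrays, but the exon this probe binds was not analysed here. These values therefore check neither the labels nor the deletion, which the paper tested in DNA, RNA and protein. At 20 probes that differed by more than 1 log2 in the same direction in all KO and WT pairs of experiments 2 and 3, chosen after their values were seen, the position of each experiment 1 array between the WT level (0) and the KO level (1) was taken as a median. The chow arrays lay at 0.079 and 0.095 for WT and at 0.905 and 0.93 for KO, in aorta and muscle respectively. On HFD the same experiment gave arrays at neither end, at 0.264 and 0.384 for those labelled WT and at 0.36 and 0.502 for those labelled KO. Fitted differences of diet and strain are therefore given with and without experiment 1. The whole arrays had a 75th percentile signal between 2390 and 5938, and 59.6% to 75.7% of their spots were well above background.

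All members but Prox1 had a probe well above background on every array. The brighter Lyve1 probe and the Ccl21a, Reln and Mmrn1 probes were well above background on 24 of 24 arrays, as was the brighter of the Pdpn probes. Some muscle arrays were still low, down to −4.64 for Ccl21a and −5.05 for Mmrn1. The brighter Prox1 probe was well above background on 16 of 24 arrays and the other on 1, so the gene that defines the lineage was measured close to the detection limit. Among the 6 members, Prox1 passed the filter on dim probes in aorta only through its WT HFD group and was not tested in muscle. None of the 9 probes was saturated. The Reln probe was spotted 10 times on each array, and its spots differed by an SD of 0.0188 to 0.127 on the log2 scale, far less than its arrays did. Ccl21a has near-identical genes, and Ccl21b and Ccl21c had no probe that could be matched by accession, so the signal of the Ccl21a probe is uncertain as to which copy it came from.

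**Figure D1:**
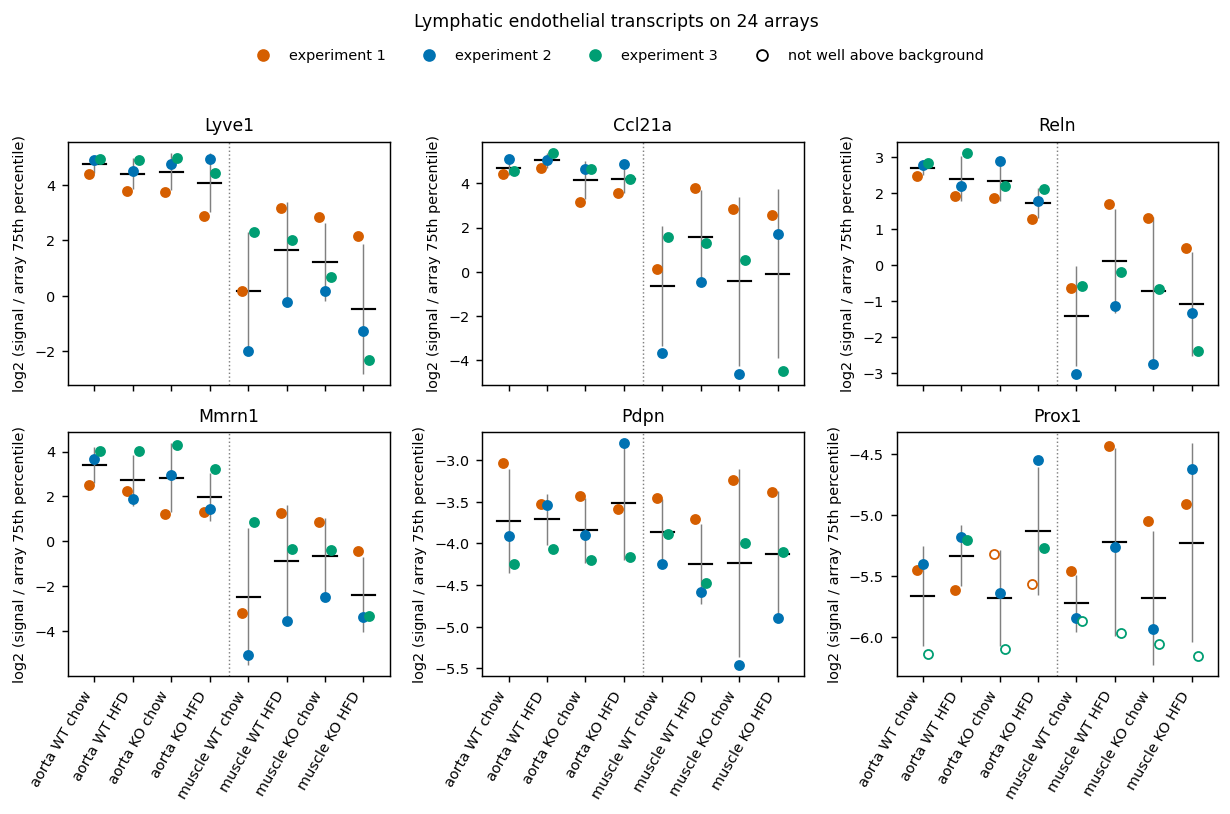
Levels of the 6 transcripts on the 24 arrays, as log2 of the signal over the array's 75th percentile (vertical axis of each panel), in the 8 groups of tissue, strain and diet (horizontal axis). Points are arrays coloured by experiment, open where the probe was not well above background, with the group mean as a bar and 1 SD as a line; Lyve1, Ccl21a, Reln and Mmrn1 lay higher in aorta and spread over a wider range in muscle, while the levels of Pdpn and of Prox1 overlapped between the tissues.

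Lyve1 was high in every aortic sample. In aorta its level in experiments 1, 2 and 3 was 4.39, 4.89 and 4.94 in WT on chow. It was 3.79, 4.495 and 4.89 in WT on HFD. It was 3.72, 4.73 and 4.94 in KO on chow, and 2.87, 4.92 and 4.43 in KO on HFD. The 4 aortic groups overlapped, and experiment 1 gave the lowest array of each. In skeletal muscle the same probe read 0.157, −1.97 and 2.29 in WT on chow. It read 3.15, −0.24 and 2.00 in WT on HFD. It read 2.82, 0.187 and 0.675 in KO on chow, and 2.16, −1.26 and −2.33 in KO on HFD. The muscle arrays thus spanned 44.5-fold between the lowest and the highest, against 4.22-fold in aorta, and all 4 muscle groups overlapped.

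Ordered by group mean, Lyve1 was highest in aorta of WT on chow, at 4.74 ± 0.30 (SD, n = 3), followed by KO on chow at 4.47 ± 0.65, WT on HFD at 4.39 ± 0.56 and KO on HFD at 4.07 ± 1.07. The muscle groups followed, with WT on HFD at 1.64 ± 1.72, KO on chow at 1.23 ± 1.40, WT on chow at 0.157 ± 2.13 and KO on HFD at −0.47 ± 2.35. Neighbours in this order within a tissue differed by less than the larger of their SDs. The step from the lowest aortic group to the highest muscle group was larger than either SD.

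Ccl21a, Reln and Mmrn1 had the same layout. Ccl21a lay between 3.15 and 5.39 in aorta, with a median of 4.66. In muscle it read 0.143, −3.70 and 1.57 in WT on chow, and 3.81, −0.48 and 1.31 in WT on HFD. It read 2.83, −4.64 and 0.522 in KO on chow, and 2.55, 1.70 and −4.49 in KO on HFD, a spread of 351-fold over the 12 muscle arrays. No muscle group was separated from another, and the lowest arrays came from experiment 2 on chow and from experiment 3 in KO on HFD. Reln lay between 1.26 and 3.11 in aorta (median 2.19) and between −3.02 and 1.70 in muscle (median −0.65). Its muscle values were −0.64, −3.02 and −0.57 in WT on chow, 1.70, −1.14 and −0.20 in WT on HFD, 1.30, −2.75 and −0.67 in KO on chow, and 0.472, −1.33 and −2.37 in KO on HFD. Mmrn1 lay between 1.24 and 4.30 in aorta (median 2.72) and between −5.05 and 1.29 in muscle (median −1.45). Its muscle values were −3.20, −5.05 and 0.881 in WT on chow, 1.29, −3.54 and −0.32 in WT on HFD, 0.885, −2.46 and −0.36 in KO on chow, and −0.44, −3.36 and −3.31 in KO on HFD. Like Lyve1, each had its highest muscle value in WT on HFD of experiment 1, and that array lay above the lowest aortic array of the same experiment, so aorta and muscle overlapped for all 4 genes through experiment 1.

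Pdpn and Prox1 were dim in both tissues. Pdpn lay between −4.25 and −2.80 in aorta and between −5.46 and −3.24 in muscle. Prox1 lay between −6.14 and −4.54 in aorta and between −6.16 and −4.43 in muscle, with open and filled points mixed. The ranges of the tissues overlapped for each gene.

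The spread of the 4 brighter members in muscle was large for this data set. Over the 4 groups of a tissue, the within-group SD of Ccl21a was 3.22 in muscle, at the 99.9 percentile of the probes tested, against 0.603 in aorta, where it stood at the 51.3 percentile. The SD of Lyve1 was 1.93 in muscle, at the 98.6 percentile, and 0.705 in aorta, at the 61.6 percentile. Mmrn1 had 2.29 and 1.17, at the 99.4 and 86.4 percentiles, and Reln had 1.60 and 0.475, at the 96.4 and 34.5 percentiles. The median probe had 0.492 in muscle and 0.591 in aorta, so these members were variable in muscle where most probes were not. In pools of bulk RNA, fewer cells of a type in a pool and less RNA of the gene per cell cannot be told apart.

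Lyve1, Ccl21a, Reln and Mmrn1 were higher in aortic than in skeletal muscle endothelium. Averaged over strain and diet, Lyve1 was higher by 3.78 on the log2 scale, or 13.7-fold (SE 0.712, 95% interval 2.29 to 5.27, adjusted p = 0.00061 by limma with the slide as a random block). Mmrn1 was higher by 4.32, or 19.9-fold (SE 0.862, adjusted p = 0.00101). Reln was higher by 3.05, or 8.27-fold (SE 0.536, adjusted p = 0.000327), and Ccl21a by 4.44, or 21.7-fold (SE 1.21, adjusted p = 0.00989). Each was higher in aorta in all 12 pairs of arrays of the same strain, diet and experiment. Pairs of the same experiment share their slides and are not independent, and the share of all probes with 1 sign in all 12 was not counted. Pdpn differed by 0.418 (95% interval −0.22 to 1.06, adjusted p = 0.317), and its interval does not reach the size seen for these 4. Prox1 differed by 0.012 (−0.57 to 0.594, adjusted p = 0.978). Its probe was near background, well above it on 8 of 12 arrays of each tissue, so this interval cannot exclude a difference between the tissues. Thus 4 of 6 members were called, all higher in aorta, where 28.2% of the 27387 probes tested were called in either direction and 11.5% were called higher in aorta.

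All probes together had a median difference of −0.274 between aorta and muscle, and relative to that median Lyve1 was higher in aorta by 4.05, Ccl21a by 4.71, Reln by 3.32 and Mmrn1 by 4.59. The other probe of Lyve1, well above background on 22 of 24 arrays, gave a difference of 4.48 (SE 0.932, adjusted p = 0.00144). The size depended on the experiment. The mean difference of Lyve1 was 1.62 in experiment 1, which was scanned in a session of its own, 5.58 in experiment 2 and 4.14 in experiment 3. Ccl21a gave 1.63, 6.71 and 4.98, Reln 1.16, 4.47 and 3.52, and Mmrn1 2.19, 6.09 and 4.67. Without experiment 2, only Reln of the 4 passed the threshold (2.34, adjusted p = 0.0369), and Lyve1 stood at 2.88 (adjusted p = 0.108), Ccl21a at 3.30 (adjusted p = 0.151) and Mmrn1 at 3.43 (adjusted p = 0.0939). Each slide held arrays of a single tissue and experiment, so slide and tissue cannot be told apart other than by treating the slides as a random sample. With the pool of mice as a replicate block in place of the slide, 15402 probes were called and the adjusted p of Lyve1 was 0.000669. That fit leaves the slide out and counts the arrays of a slide as independent, so its larger count adds no support. The slide block used 1 correlation of 0.28 for all probes. The 3 experiment means of Lyve1 had an SD of 2.005, so its interval may be too narrow.

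**Figure D2:**
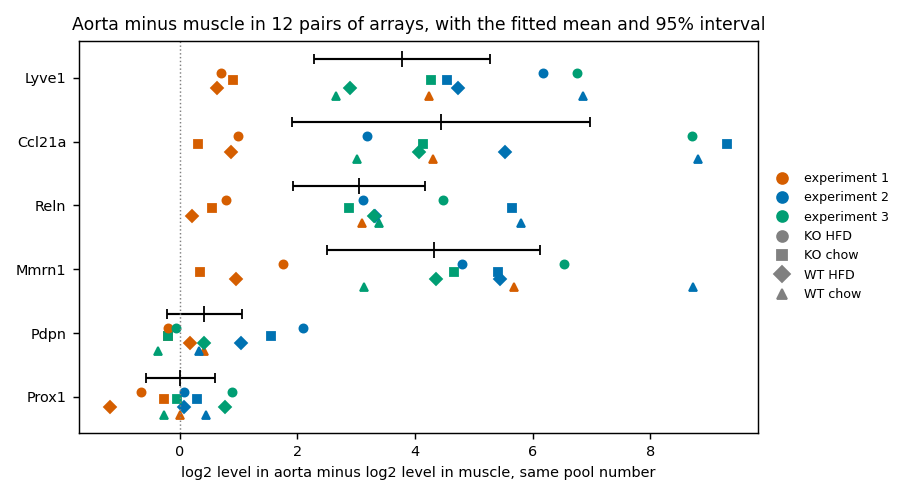
Difference between the aortic and the muscle array of the same strain, diet and experiment, in log2 units (horizontal axis), for the 6 genes (vertical axis). Points are the 12 pairs, coloured by experiment and shaped by strain and diet, and the black bar is the fitted mean with its 95% interval; all pairs lie above 0 for Lyve1, Ccl21a, Reln and Mmrn1, and pairs lie on both sides of 0 for Pdpn and Prox1.

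Other lymphatic genes were mixed. Of 15 further genes known from lymphatic endothelium, 9 were higher and 2 lower in aorta, with a median difference of 1.32 against −0.27 over all probes. Among all probes tested, 11.5% were called higher in aorta. The largest differences were in Ackr2, a chemokine scavenger, at 5.38 (adjusted p = 0.000341), Ackr4, a scavenger of CCL19 and CCL21, at 4.59 (adjusted p = 0.000108), and Foxc2, a transcription factor of lymphatic valves, at 4.55 (SE 0.304, adjusted p = 2.28e-08). The Ackr2 probe was well above background on 11 of 12 muscle arrays, Ackr4 on 7 and Foxc2 on 12. Some genes of the lymphatic VEGF-C pathway, named here after their values were seen, had negative differences. Flt4, which encodes the VEGF-C receptor VEGFR-3, differed by −1.75 (adjusted p = 0.0627) and did not pass the test. Its co-receptor Nrp2, at −1.26 (adjusted p = 0.00905), and the transcription factor Sox18, at −1.04 (adjusted p = 0.00689), were lower in aorta.

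The wider pathway of lymphatic growth was split. Of 30 genes of this pathway, 10 were higher and 12 lower in aorta (median −0.38), where 11.5% of all probes tested were called higher and 28.2% in either direction. The 10 include Gdf2 and Angpt1, well above background on 0 of 12 muscle arrays, and Adamts3, on 5. Gdf2, Angpt1 and Adamts3 passed the filter on dim probes only through aortic groups, so their calls are a description, and 27 of the 30 were tested in muscle. Ccbe1, a secreted cofactor for the processing of VEGF-C, was higher by 7.23 (SE 0.885, adjusted p = 1.07e-05) and was well above background on 9 of 12 muscle arrays. Vegfd, a ligand of VEGFR-3, was higher by 5.81 (SE 0.538, adjusted p = 4.08e-07). Vegfc, the main ligand, differed by −0.14 (adjusted p = 0.679). Among 18 partners of the members, 15 were measured, of which 7 were higher and 2 lower in aorta (median 0.712). The 7 include Has1 and Has2, which make the hyaluronan that Lyve1 binds, at 8.55 and 6.26. Each was well above background on 5 of 12 muscle arrays, and both passed the filter on dim probes only through aortic groups. Their differences are therefore a description, and 12 of the 15 partners were tested in muscle. Ccl19, the other ligand of CCR7, was higher by 4.80 (adjusted p = 2.66e-05).

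Markers of other cell types also differed between the tissues, and their part in the members' difference was not tested. Among all probes tested, 28.2% were called in either direction and 11.5% higher in aorta. All 10 of 10 fibroblast genes were higher in aorta (median 4.48), led by Fbln1 at 7.45, Dpt at 5.73 and Pi16 at 5.61, and the mean level of the list ran from 4.25 to 5.85 in aorta and from −0.72 to 3.24 in muscle. Of 9 measured adipocyte genes 8 were higher in aorta (median 2.18), with Cidea, Plin1 and Cidec first. The 8 include Adig, well above background on 2 of 12 muscle arrays. Of 4 measured mesothelial genes Wt1 and Krt18 were higher (list median 2.15, with Wt1 well above background on 5 of 12 muscle arrays). Msln, at −1.92 (adjusted p = 0.215), and Krt8, at 1.08 (adjusted p = 0.325), did not pass the test. Of 5 measured genes of lymph node stroma Ccl19, Cxcl13 and Glycam1, the last well above background on 2 of 12 muscle arrays, were higher (median 4.41). Madcam1, at −0.87, and Ltbr, at −0.42, did not pass. Of 12 measured macrophage genes only Cd14 and Msr1 were higher (median −0.20), Msr1 being well above background on 2 of 12 muscle arrays. Adig, Wt1, Glycam1 and Msr1 passed the filter on dim probes only through aortic groups, so their calls are a description. None of 7 measured genes of Lyve1-bearing macrophages passed the test (median −0.18), with Mrc1 at 1.86 (adjusted p = 0.223), Pf4 at −0.87 and Cd163 at −0.29. The mean level of the macrophage list ran from −4.19 to −1.20 in aorta and from −5.58 to 0.164 in muscle. The blood endothelial list went down, with 13 of 15 genes lower in aorta (median −1.14) and levels of 2.16 to 4.23 in aorta against 4.39 to 4.81 in muscle. All 9 skeletal muscle genes were lower in aorta (median −6.68), as were 5 of 8 smooth muscle genes (median −1.13). Of the 9 skeletal muscle genes, 7 passed the filter on dim probes in aorta. Of 7 lymphocyte genes 1 was lower, and of 6 platelet genes none passed the test. The gate removes CD45+ cells, and the probe of Ptprc, the gene of CD45, was well above background on 10 of 12 arrays of each tissue.

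Ccl21a, Reln and Mmrn1, which moved together across the muscle arrays, differ in the sequence ahead of their transcription starts. The 250 bases before the start are shown for these genes because their levels varied with that of Lyve1 in muscle. The sequences come from RefSeq on GRCm38.p6, whose table held an entry for 5 of 6 members and none for Lyve1, with each sequence written 5′ to 3′ on the strand of the gene. Capitals mark matches, on either strand, to AGGAAG (a motif of ETS factors), to AGGTCA (a motif of COUP-TFII), to AACAAT (a motif of SOX factors), to AGATAA (a motif of GATA factors), to GGGCGG (the GC box) and to TATAAA (the TATA box).
Ccl21a, chr4:42773992-42774241, minus strand: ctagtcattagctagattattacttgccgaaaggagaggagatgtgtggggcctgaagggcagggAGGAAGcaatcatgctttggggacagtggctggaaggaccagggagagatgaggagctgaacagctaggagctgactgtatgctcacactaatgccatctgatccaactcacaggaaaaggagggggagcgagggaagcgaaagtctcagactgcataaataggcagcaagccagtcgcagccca
Reln, chr5:22344706-22344955, minus strand: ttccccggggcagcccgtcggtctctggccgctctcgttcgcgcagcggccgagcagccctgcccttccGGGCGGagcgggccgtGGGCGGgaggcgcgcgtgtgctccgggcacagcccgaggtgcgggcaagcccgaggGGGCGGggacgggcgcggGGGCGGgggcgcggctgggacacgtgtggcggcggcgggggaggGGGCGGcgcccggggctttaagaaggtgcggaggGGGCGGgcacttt
Mmrn1, chr6:60944067-60944316, plus strand: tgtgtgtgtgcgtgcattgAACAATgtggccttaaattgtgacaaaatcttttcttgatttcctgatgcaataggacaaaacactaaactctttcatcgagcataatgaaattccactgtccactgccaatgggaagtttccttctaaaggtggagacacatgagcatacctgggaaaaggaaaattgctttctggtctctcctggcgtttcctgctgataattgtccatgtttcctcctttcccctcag
The Reln sequence has 80.0% G and C, at the 98.9 percentile of 32851 promoters of this length, with 37 CpG and 6 GC boxes. Ccl21a has 52.8% G and C, 4 CpG and 1 AGGAAG, and Mmrn1 has 42.4% G and C, 3 CpG and 1 AACAAT, against a median of 52.4% and 6 CpG. Of all promoters, 29.5% held AGGAAG, 14% AGGTCA, and 9.42% AACAAT, 9.99% AGATAA, 32.7% GGGCGG and 12.4% TATAAA, and a match of these letters is not a known binding site. No motif of the 6 was shared by these 3 sequences. The Ccl21a promoter was set beside those of other Ccl21 genes without gaps, at the best of a range of small offsets. It was identical to that of Ccl21d at 248 of 249 bases (99.6%). For Ccl21b the best offset gave 84 of 242 (34.7%), so no close match was found there, and whether one lies elsewhere was not tested.

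In skeletal muscle the 4 brighter members rose and fell together from array to array. Over the 12 muscle arrays, Pearson's r of log2 levels was 0.925 between Lyve1 and Mmrn1, 0.869 between Lyve1 and Reln, 0.778 between Lyve1 and Ccl21a and 0.920 between Ccl21a and Reln. It was 0.823 between Reln and Mmrn1 and lowest, at 0.727, between Ccl21a and Mmrn1. After the mean of each slide was taken out, the same pairs in the same order gave 0.930, 0.766, 0.638, 0.907, 0.786 and 0.643, so the likeness was also present within an experiment. In aorta, Lyve1 gave 0.746 with Ccl21a, 0.743 with Reln and 0.678 with Mmrn1, and 0.494, 0.610 and 0.503 after the slide means were taken out. Pdpn gave 0.479 with Lyve1 in muscle and −0.27 in aorta, and its sign turned in each tissue without the slide means, to −0.28 and 0.382. Prox1, which was near background, gave 0.361 and 0.018, and 0.312 and −0.04 without them. These arrays share slides, experiments and the scaling, and the values describe 12 arrays without a test.

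**Figure D3:**
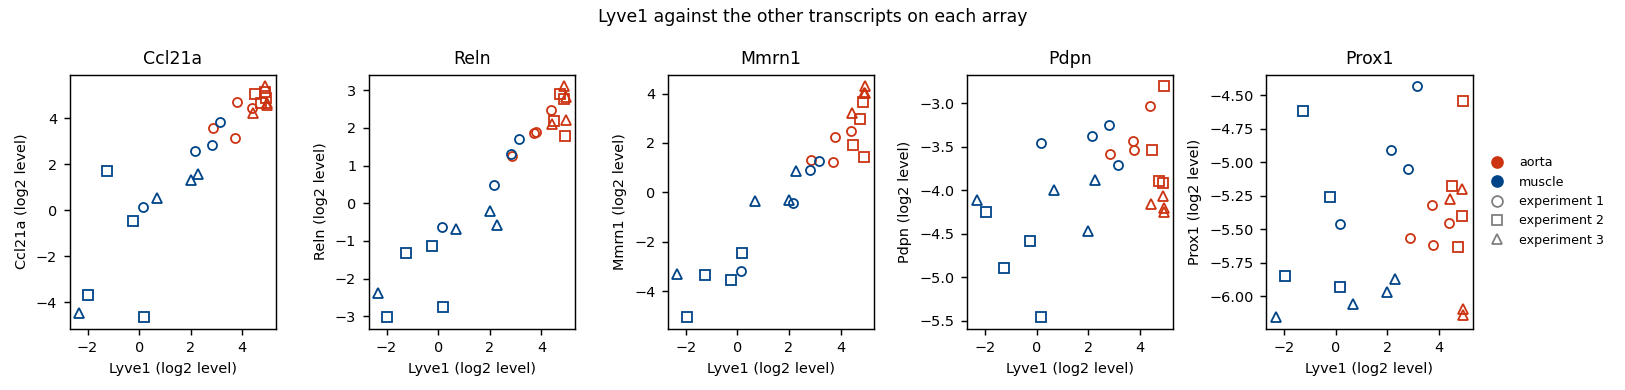
Log2 level of each other gene (vertical axis of each panel) against that of Lyve1 (horizontal axis) on the 24 arrays, red for aorta and blue for muscle, with a symbol for each experiment. Ccl21a, Reln and Mmrn1 follow Lyve1 across the muscle arrays and meet the aortic arrays at the top right, while Pdpn and Prox1 do not.

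Of 13541 other genes compared in muscle, the 5 with a pattern most like that of Lyve1 were Msln (r = 0.928), Mmrn1 (0.925), Dtx1 (0.885), Sh3gl3 (0.881) and Slc14a1 (0.876), with Reln in place 7 and Ccl21a in place 49. For Mmrn1 they were Hmgcll1 (0.934), Lyve1 (0.925), Dtx1 (0.862), Cfhr2 (0.859) and Gm4788 (0.858). For Reln they were Efemp1 (0.975), Dtx1 (0.944), Ogn (0.930), Ccl21a (0.920) and Tgfbi (0.910), and for Ccl21a Wfdc1 (0.926), Ephx2 (0.925), Ptges (0.923), Reln (0.920) and Adgre1 (0.919). Another member was thus among the 5 nearest genes of each of Lyve1, Mmrn1, Reln and Ccl21a in muscle. For Ccl21a that was Reln, with Lyve1 in place 168 and Mmrn1 in place 340. In the same tissue Pdpn was nearest to Fcgbp (0.932), Chl1 (0.912), Myf5 (0.911), Col20a1 (0.903) and Cd163 (0.884). In aorta no member was among the 5 nearest genes of another. There Lyve1 was nearest to Vta1 (0.922), Tmem189 (0.911), Phtf2 (0.909), Elmo1 (0.909) and Cdh13 (0.909), and Mmrn1, the most variable of the members in aorta, to Tmod3 (0.946), Dbr1 (0.945), Tank (0.944), Tab2 (0.943) and Gm5662 (0.936). The lists for aortic Reln (Ccnjl, Gmfg, Tmem189, Nbeal1 and Ecpas), Ccl21a (Usp16, Banp, Zfp948, Plgrkt and Adgrg3), Pdpn (Napa, Mtch1, Tmem242, Scap and Sf3a2) and Prox1 (Olfr15, Mymk, Ido2, Hhatl and Agrn) had r between 0.806 and 0.965.

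Markers of several cell types moved with the members in muscle. The mean level of the 15 other lymphatic genes gave r between 0.861 and 0.936 with Lyve1, Ccl21a, Reln and Mmrn1, and ran from −0.36 to 1.24. The 12 macrophage genes gave 0.622 to 0.865, the 4 mesothelial genes 0.706 to 0.876 and the 10 fibroblast genes 0.479 to 0.796. The 15 blood endothelial genes gave −0.79 to −0.52, within a narrow range of levels. The macrophage marker Adgre1 was well above background on 9 of 12 muscle arrays and Tyrobp on 12. Of the mesothelial genes, Wt1 was well above background on 5 of 12 muscle arrays, Krt8 on 6, Msln on 9 and Krt18 on 12. In aorta the same macrophage list gave −0.07 to 0.265. The part of these cells in the members' levels was not tested.

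**Figure D4:**
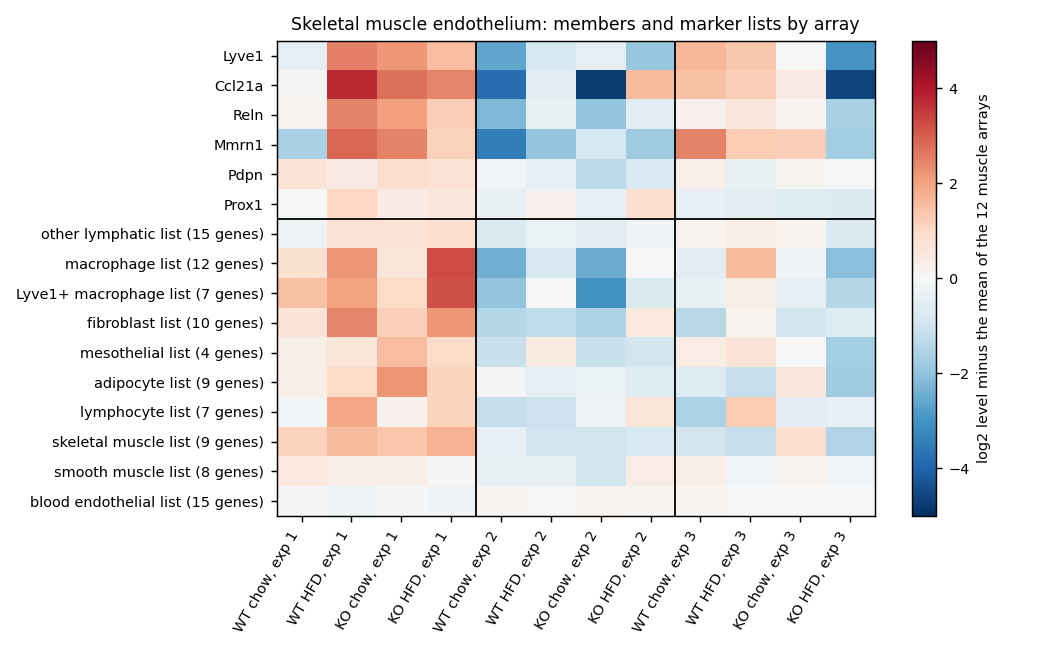
Log2 level on each of the 12 muscle arrays minus the mean over those arrays (colour scale), for the 6 genes and for the mean of each marker list (rows), with arrays ordered by experiment (columns). Lyve1, Ccl21a, Reln and Mmrn1 are above their means on the WT HFD, KO chow and KO HFD arrays of experiment 1 and below them on most arrays of experiment 2 and on KO HFD of experiment 3.

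The diet comparison asks what 8 weeks of HFD did to these transcripts in each strain, as the log2 ratio of the HFD array to the chow array of the same experiment. In muscle of WT mice Lyve1 ratios were 2.99, 1.74 and −0.28 in experiments 1, 2 and 3, a mean of 1.48 ± 1.65 (SD, n = 3). In KO mice they were −0.65, −1.45 and −3.001, a mean of −1.70 ± 1.195. The WT ratios lay above the KO ratios without overlap, and the means differed by −3.18 (KO minus WT), with an SD of 0.463 between experiments. The muscle ratios of the strains did not overlap, in either direction, for 8.44% of all probes. Lyve1 was chosen for this contrast, so these values carry no test. Without experiment 1, in which the HFD arrays resembled neither strain closely, the WT mean was 0.725 and the KO mean −2.22, and the difference was −2.95. The other probe of Lyve1 gave 0.286 in WT, −0.73 in KO and a difference of −1.02, and was not well above background on 2 of the KO muscle arrays.

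The ratios of Mmrn1, Ccl21a and Reln in muscle also varied between experiments. In muscle of WT mice, Mmrn1 ratios were 4.48, 1.51 and −1.20, Ccl21a ratios 3.67, 3.22 and −0.25, and Reln ratios 2.33, 1.88 and 0.368. In KO mice, Mmrn1 ratios were −1.32, −0.90 and −2.95, Ccl21a ratios −0.28, 6.34 and −5.01, and Reln ratios −0.83, 1.42 and −1.70. In WT the ratios of Lyve1, Mmrn1 and Ccl21a were above 0 in experiments 1 and 2 and below 0 in experiment 3, and those of Reln were above 0 in all 3. In KO the ratios of Lyve1 and Mmrn1 were below 0 in all 3 experiments, and those of Ccl21a and Reln had both signs. The share of all probes with 1 sign in all 3 experiments was not counted. Pdpn ratios were −0.25, −0.33 and −0.59 in WT and −0.14, 0.559 and −0.11 in KO.

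None of these ratios passed the test across all probes. For WT muscle the fitted means were 1.60 for Mmrn1 (95% interval −0.71 to 3.91, adjusted p = 0.565), 2.21 for Ccl21a (−2.34 to 6.77, adjusted p = 0.702), 1.53 for Reln (0.036 to 3.02, adjusted p = 0.403) and −0.39 for Pdpn (−0.94 to 0.16, adjusted p = 0.556). For KO muscle they were −1.73 for Mmrn1 (adjusted p = 0.665), 0.347 for Ccl21a (adjusted p = 0.965), −0.37 for Reln (adjusted p = 0.87) and 0.105 for Pdpn (adjusted p = 0.9). Limma called 0 of 25682 probes in WT muscle (0%) and 1 in KO muscle (0.00389%), with 3098 and 2181 probes at an unadjusted p under 0.05, and the test of the study's methods left 0 after Benjamini-Hochberg in each. Without experiment 1 the WT values were 0.156 for Mmrn1, 1.49 for Ccl21a and 1.12 for Reln, and the KO values −1.93, 0.663 and −0.14, while Pdpn was −0.46 in WT and 0.226 in KO.

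**Figure D5:**
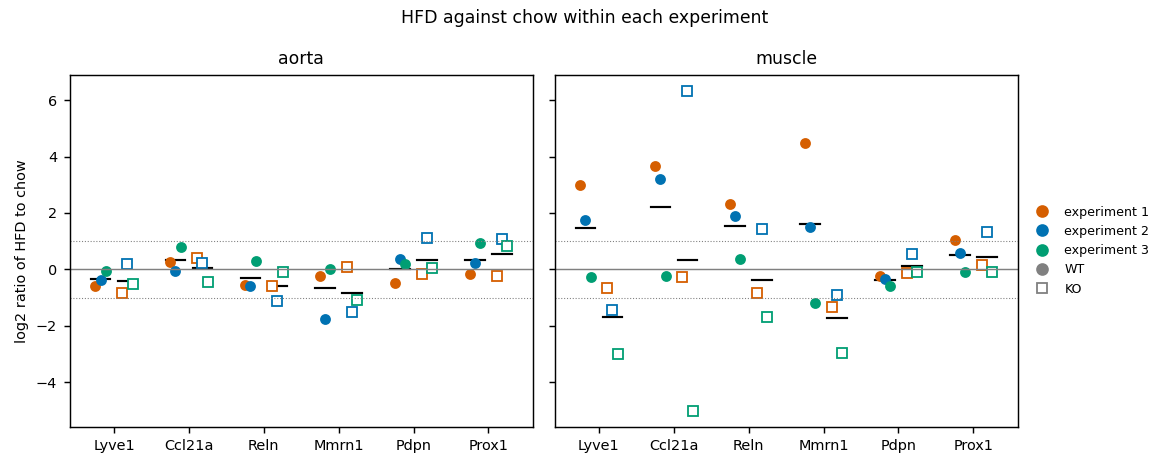
Log2 ratio of the HFD to the chow array of the same experiment (vertical axis) for the 6 genes (horizontal axis), in aorta (left) and muscle (right), filled for WT and open for KO, coloured by experiment, with the mean of 3 as a bar and dotted lines at 1 and −1. Ratios in aorta lie mostly within the dotted lines. The 3 WT ratios of Lyve1, chosen on these ratios, lie above the 3 KO ratios in muscle, where 8.44% of all probes had strains that did not overlap.

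In aorta no ratio of a member passed the test. Lyve1 ratios were −0.60, −0.39 and −0.05 in WT and −0.85, 0.19 and −0.52 in KO, with fitted means of −0.35 (95% interval −1.05 to 0.361, adjusted p = 0.955) and −0.40 (−1.10 to 0.313, adjusted p = 0.633). Mmrn1 gave the largest means, −0.67 in WT (−1.77 to 0.436, adjusted p = 0.942) and −0.84 in KO (−1.94 to 0.265, adjusted p = 0.525), with ratios of −0.25, −1.77 and 0.019 in WT and 0.084, −1.52 and −1.08 in KO. Reln means were −0.29 and −0.60, Ccl21a means 0.326 and 0.064, Pdpn means 0.021 and 0.328, and Prox1 means 0.331 and 0.557, none of which passed the test. Without experiment 1 the Lyve1 means were −0.22 in WT and −0.16 in KO and the Mmrn1 means −0.88 and −1.30, and Ccl21a was 0.365 in WT and changed sign to −0.10 in KO. Reln was then −0.16 and −0.60, Pdpn 0.281 and 0.569, and Prox1 0.58 and 0.96. No probe of 25865 was called in either strain (0%) by limma, with 1493 in WT and 2910 in KO at an unadjusted p under 0.05, and the test of the study's methods also left 0.

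The study displayed transcripts whose ratio passed 1 log2 in all 3 experiments. By such a rule, with the same direction required, 0 of 6 members were called in aorta of either strain, against 1.59% of all probes in the WT and 2.93% in the KO aorta, and 0 of 5 in muscle, against 1.83% in WT and 0.989% in KO. For the members the rule was applied to the brightest probe alone. The paper does list Lyve1 among its muscle transcripts and measured it by qPCR as well, so this count does not reproduce its selection. With experiment 3 left out, Ccl21a, Reln and Mmrn1 passed in WT muscle, where 4.4% of probes did, and so did Lyve1, which was chosen on these ratios. With experiment 1 left out, Mmrn1 passed in KO aorta, where 6.87% of probes did, and Lyve1 in KO muscle, where 3.41% did. With experiment 2 left out, Mmrn1 passed in KO muscle, where 2.18% of probes did.

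Whether the response to HFD differed between the strains was tested for members other than Lyve1 in muscle. Mmrn1 differed by −3.32 in muscle (KO minus WT, 95% interval −6.59 to −0.06, adjusted p = 0.999), Reln by −1.90 (−4.00 to 0.214, adjusted p = 0.999), Ccl21a by −1.87 (−8.31 to 4.58) and Pdpn by 0.493 (−0.28 to 1.27). Limma called 0 of 25682 probes (0%), with 1059 at an unadjusted p under 0.05 and 937 by the test of the study's methods, of which 0 were left after adjustment. Without experiment 1 the difference was −2.08 for Mmrn1, −1.26 for Reln, −0.82 for Ccl21a and 0.684 for Pdpn. Among the 4 members other than Lyve1, the muscle ratios of the strains did not overlap for Pdpn alone, against 8.44% of all probes. In aorta they did not overlap for 0 of 6 members, against 4.84% of probes. In aorta the differences in response ran from −0.30 for Reln to 0.307 for Pdpn, with −0.05 for Lyve1 (95% interval −1.05 to 0.953, adjusted p = 1, and 0.054 without experiment 1). Without that experiment the others were −0.44 for Reln, −0.47 for Ccl21a, −0.42 for Mmrn1, 0.288 for Pdpn and 0.38 for Prox1. Limma called 0 of 25865 probes (0%), with 677 at an unadjusted p under 0.05 and 560 by the test of the study's methods, 0 after adjustment.

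No member passed the test between the strains. Over both diets, arrays labelled KO differed from WT in aorta by −0.30 for Lyve1 (95% interval −1.13 to 0.541), −0.70 for Ccl21a (−1.43 to 0.043), −0.52 for Reln (−1.14 to 0.094) and −0.65 for Mmrn1 (−1.95 to 0.657), and by 0.043 for Pdpn and 0.092 for Prox1, each with an adjusted p of 1. Without experiment 1 these differences were −0.045 for Lyve1, −0.43 for Ccl21a, −0.48 for Reln, −0.43 for Mmrn1, 0.177 for Pdpn and 0.092 for Prox1. Same-numbered WT and KO arrays varied together, and with the slide as replicate block the SE of Lyve1 went from 0.380 to 0.220 and that of Mmrn1 from 0.594 to 0.306, the lowest adjusted p of a member was 0.92, for Ccl21a, and 1 probe was called in place of 3. On HFD, Ccl21a, Reln and Mmrn1 were lower in aorta of KO in all 3 experiments, with Reln differences of −0.63, −0.40 and −0.998, Ccl21a differences of −1.15, −0.16 and −1.17 and Mmrn1 differences of −0.92, −0.47 and −0.81. On chow the experiments disagreed in sign for each of these genes. None of these differences passed the test on either diet, and the share of all probes with 1 sign in all 3 experiments was not counted. The HFD arrays of experiment 1 also lay between the strains. In muscle the differences over both diets were −0.52 for Lyve1 (−2.64 to 1.60), −0.70 for Ccl21a, −0.25 for Reln, 0.147 for Mmrn1 and −0.13 for Pdpn, each with an adjusted p of 1. Without experiment 1 they were −1.20 for Lyve1, −1.41 for Ccl21a, −0.55 for Reln and −0.32 for Pdpn, and Mmrn1 changed sign to −0.37. Lyve1 differences between the strains in muscle were 2.66, 2.16 and −1.61 on chow and −0.98, −1.02 and −4.33 on HFD. Limma called 3 of 25865 probes in aorta (0.0116%) and 0 of 25682 in muscle (0%), with 878 and 839 at an unadjusted p under 0.05, and no member was among them.

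The lists of related genes gave no calls with diet. In muscle, 0 of 15 other lymphatic genes passed the test in WT (median 0.262) or in KO (median −0.10), where all probes had medians of −0.02 and 0.005. The largest WT values were 3.43 for Ackr4 (adjusted p = 0.233), 1.22 for Klhl4 and 1.06 for Nts, and the largest KO values −2.24 for Tbx1 (adjusted p = 0.553), −1.10 for Clca3a1 and 0.964 for Itga9. Of 27 measured pathway genes 0 passed in muscle of either strain, and Ccbe1 had the largest value in each, 2.52 in WT (adjusted p = 0.225) and 2.55 in KO (adjusted p = 0.481). Among 12 measured partners 0 passed, with Ackr4 first in WT and Hmmr, a hyaluronan receptor, first in KO at 2.36 (adjusted p = 0.667). Of 10 measured macrophage genes 0 passed in muscle of either strain, with medians of 1.93 in WT and 0.871 in KO. The largest WT values were 4.48 for Ptprc (adjusted p = 0.162), 3.62 for Adgre1 (adjusted p = 0.593) and 2.19 for Csf1r (adjusted p = 0.371), and their part in the members' ratios was not tested. In aorta 0 of 15 other lymphatic genes passed in WT (median −0.11) or KO (median −0.13).

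Markers of other cell types had medians away from 0 with diet, with 0 genes passing the test in each list named here, and their part in the members' ratios was not tested. In aorta the 9 adipocyte genes had negative values in both strains (0 of 9 above 0, medians −3.47 in WT and −3.54 in KO), as had the 15 blood endothelial genes (0 of 15 above 0, medians −0.44 and −0.87). The fibroblast genes were above 0 in aorta for 10 of 10 in each strain (medians 0.334 and 0.728). In muscle they were above 0 for 10 of 10 in WT (median 1.12) and 9 of 10 in KO (median 1.15). The genes of Lyve1-bearing macrophages were above 0 in muscle for 6 of 7 in WT (median 0.661) and 7 of 7 in KO (median 1.04).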

How the data were processed

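RNA from each sorted pool was amplified, labelled with Cy3 and hybridised to single-colour Agilent whole mouse genome arrays. The authors deposited scanner intensity files per array (Feature Extraction 10.5.1.1 per the file headers, 9.1 per the labels) and a table of log2 values, each column set against the scanner values. Here log2 of the deposited processed intensity minus the array's 75th percentile was taken, outlier spots were dropped and spots of a probe averaged. A probe was well above background on an array if at least 0.5 of its spots were, and was tested if this held on every array of at least 1 group. Probes were named by accession through RefSeq, which gave 1 symbol for 27198 of 41174 probes. Groups were taken from the labels.

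Limma 3.58.1 in R 4.3.3 was fitted over all probes tested, with Benjamini-Hochberg adjusted p under 0.05 as the threshold. The tissue fit used 8 group means with the slide as a random block (correlation 0.28). HFD minus chow was fitted with strain and experiment as a block, and KO minus WT with 4 group means for each tissue. As a check of pairing, same-numbered HFD and chow arrays had deviations from their group means that correlated at 0.009 to 0.341 in aorta and 0.061 to 0.453 in muscle, WT and KO arrays at 0.066 to 0.583 in aorta and 0.275 to 0.526 in muscle, and aorta and muscle arrays at 0.069 to 0.4. The diet block was kept because the methods take ratios within an experiment, and the strain fit had no block because the methods compare the strains unpaired, with the slide as replicate block as an alternative. Scripts were tested on simulated data. With 24 arrays, their number limits the precision, and p-values measure the spread between pools. The members and the 14 gene lists were chosen with earlier results of these data known. Named genes were the members with all probes, the 5 genes nearest to each, Lgals3, and of each list those called or, where none or more than 5 were, the 3 with the largest change. Alternatives were background correction (normexp, offset 50), quantile normalization, the deposited table, the filter, the blocks, the probe of a gene, the test and each experiment left out. An exact permutation test of 3 ratios against 3 cannot give a p below 0.1.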

Additional observations from a re-analysis of the deposited data

How the results depend on the processing

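The tissue difference of Lyve1, Ccl21a, Reln and Mmrn1 kept its direction under every alternative run. The deposited value table matched the values used here up to a shift per array, within 0.05 log2 for 100% of probes. Its 76 results were scored as unchanged, which for diet and strain was near fixed in advance and is no separate check. Counts were scored as unchanged when close, not only when equal. With 1 experiment left out, Lyve1 ran from 2.88 to 4.86, Ccl21a from 3.30 to 5.85, Mmrn1 from 3.43 to 5.38, Pdpn from −0.002 to 0.654 and Prox1 from −0.15 to 0.281; between 1 and 4 members and between 3027 and 7186 probes were called, and both counts were lowest without experiment 2. Prox1 was −0.17 with normexp. The count of 7715 probes became 4976 with the mean of a gene's probes, 12630 without a block for the slide and 15402 with the pool of mice as replicate block. Neither of the last fits allows for the slide, which held a single tissue. The cause of these shifts was not tested.

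Counts of probes called with diet were small throughout. In aorta of WT they were 2 with normexp, 2 with probes above background on every array, 3 with the mean of probes, 4 with no replicate block and 2 with the slide as replicate block, and in KO 4, 5, 9, 7 and 4. In muscle of WT they were 8, 29, 1 and, with no replicate block, 1; in KO they were 5 with normexp, 2 with probes above background on every array, 4 with no replicate block, 4 with the slide as replicate block, 0 by the methods' test and 0 to 0 with 1 experiment left out. KO minus WT in aorta gave 8 probes with normexp, 1 with quantile normalization, 1 with no filter, 0 with the stricter filter, 0 with the mean of probes, 1 with the slide as replicate block and 0 to 1 with an experiment left out; in muscle the last gave 0 to 2. The replicate blocks changed the call of no member. Probes past 1 log2 in all experiments numbered 234 and 464 in aorta of WT and KO and 259 and 90 in muscle with normexp, and with 1 experiment left out 958 to 1526, 1545 to 2672, 989 to 1486 and 561 to 1232; members past 1 log2 then numbered 0 to 1 in aorta of KO, 0 to 4 in muscle of WT and 0 to 1 in muscle of KO.

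Small differences of members changed sign, none of them called. With 1 experiment left out, HFD minus chow in aorta ran from −0.16 to 0.281 for Pdpn in WT (−0.023 with normexp), from −0.056 to 0.569 for Pdpn in KO and from −0.10 to 0.315 for Ccl21a in KO. In muscle of KO it ran from −0.12 to 0.226 for Pdpn, from −2.65 to 3.03 for Ccl21a and from −1.26 to 0.298 for Reln. The difference in response in aorta ran from −0.36 to 0.164 for Lyve1 (0.023 with quantile normalization, 0.105 with the mean of its probes and 0.257 with its other probe, the last chosen after seeing the data), from −0.10 to 0.394 for Prox1, from −0.55 to 0.228 for Ccl21a and from −0.42 to 0.293 for Mmrn1. KO minus WT ran from −0.13 to 0.177 for Pdpn in aorta, and in muscle from −1.20 to 0.703 for Lyve1, −0.32 to 0.195 for Pdpn, −1.41 to 0.663 for Ccl21a, −0.55 to 0.198 for Reln and −0.47 to 1.28 for Mmrn1. The Prox1 probes were near background, which limits what their values can show.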
